A study of Mus musculus with 2 samples.

Results

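The LRFN family is a set of synaptic adhesion proteins, also called SALMs, encoded in the mouse by Lrfn1 to Lrfn5. All 5 members were found by matching the transcript accession of each array probe to a gene symbol. In this way 7 of the 55669 probes were matched to them, among 20655 genes that could be named. A member's probe without such an accession would be missed. The measurements come from 2 one-colour Agilent arrays of total RNA from mouse retina at postnatal day 14, one of Mef2d KO retina and one of wild-type (WT) retina. The protein encoded by Mef2d is a MEF2 family transcription factor, and the comparison asks which genes differ in expression when it is lost. The labels do not give the allele, the strain, the sex or the number of animals pooled on an array. With 1 array per genotype the differences have no replicate check, and p-values are not given. The family was selected on the measured Mef2d KO minus WT differences of these same arrays, Lrfn2 among them, so its values are a description and support nothing further.

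The array labelled Mef2d KO showed no lower Mef2d signal. With each array scaled to its own 75th percentile, the Mef2d probes stood at log2 levels of 0.34 and -1.54 on that array and -0.091 and -1.68 in WT, which are differences of 0.43 ± 0.20 and 0.14 ± 0.21. The sources used here do not place the probes relative to the deletion, so they check nothing by themselves, and "Mef2d KO" below means the array with that label.

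LRFN proteins sit in the synaptic membrane with leucine-rich repeats, an immunoglobulin domain and a fibronectin type III domain outside the cell. Lrfn1, Lrfn2 and Lrfn4 end in a motif that binds PDZ domains of postsynaptic scaffolds such as PSD-95, which Lrfn3 and Lrfn5 lack, and Lrfn2 associates with NMDA receptors in brain neurons. Lrfn4 and Lrfn5 bind presynaptic receptor phosphatases of the LAR type across the cleft, and Lrfn3 binds Lrfn4 in the same membrane and restrains it. The retinal synapse of rods and cones uses other leucine-rich repeat proteins, among them Elfn1, Lrit3 and nyctalopin.

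Lrfn2 was the member that stood apart. Its scaled signal was 3.003-fold lower on the Mef2d KO array, while the other 4 members differed between -0.18 and 0.026 on the log2 scale (Mef2d KO minus WT) by their brightest probes. The scanner software flagged all 5 members as well above background on each array, and 1 of them was lower by 2-fold or more and 0 were higher by that much. Of all 16190 genes that passed the same flag, 1.75% were lower by 2-fold or more and 0.618% higher, which is 283 and 100 genes. These counts were 171 and 151 with median scaling and 163 and 154 with cyclic loess. The members' median difference was -0.15, against -0.0061 for all genes, and it was 0.031 under median scaling, which adds 0.18 to every difference.

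Lrfn2, one of the members that bind PSD-95, was read by a single matched probe. The probe had a processed signal of 664 ± 66.5 on the Mef2d KO array and 1878 ± 188 on the WT array, where ± is the error of the scanner software's model for 1 spot and leaves out variation between animals. Spot brightness was 21.4 times the local background on the Mef2d KO array and 52.5 times on the WT array, so the probe was far from the detection limit on both. Relative to each array's 75th percentile, its log2 level was -0.37 in Mef2d KO and 1.22 in WT, a difference of -1.59 ± 0.20. Of all 16190 genes, 87 had a lower difference. Among the 500 probes nearest to it in mean level, 1 had a difference as low or lower, 5 were at least 2-fold lower, and the central 95% ran from -0.62 to 0.56. The difference lay between -1.60 and -1.41 under the 8 other processing choices tried. Not all of these could move it. With a single probe the mean over probes is the same value, and the series table holds the same intensities times a constant. Median scaling and the other 75th percentile add the same amount to every gene. In whole-retina RNA, fewer cells that express a gene and less of its RNA per cell cannot be told apart.

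**Figure D1:**
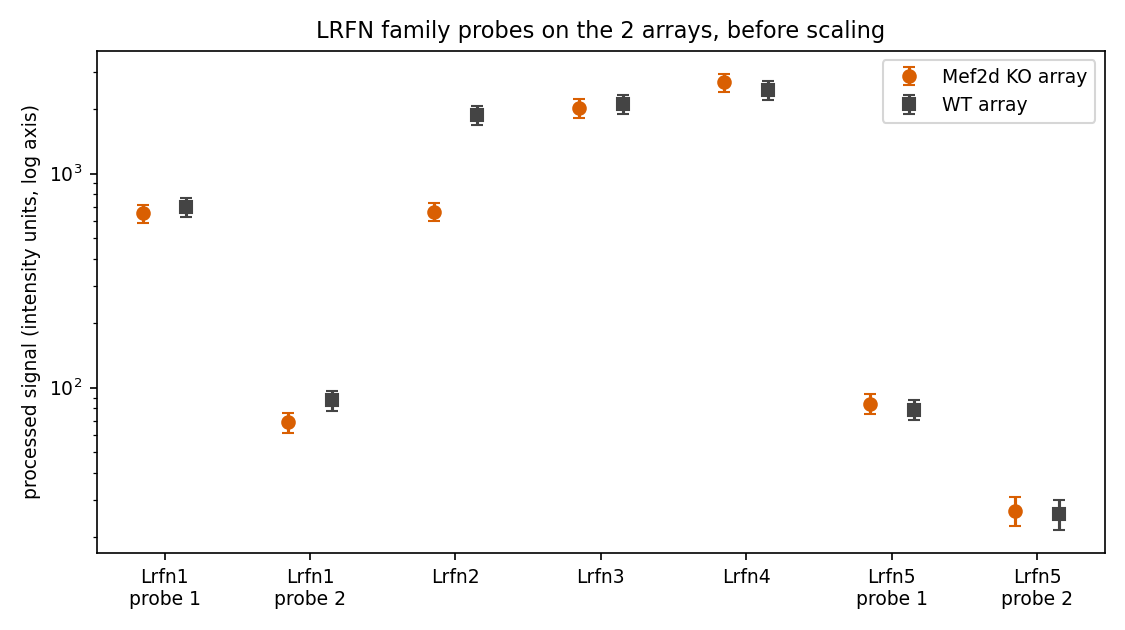
Processed signal of the 7 LRFN probes (log axis, intensity units) on the Mef2d KO array (circles) and the WT array (squares), with the scanner software's error for 1 spot as bars; where a gene has a pair of probes, the brighter is drawn first. The pair of points lies well apart for Lrfn2 (664 against 1878) and close together for Lrfn3, Lrfn4 and both Lrfn5 probes.

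Lrfn1, which also binds PSD-95, had a pair of probes designed to different transcript accessions. The brighter one read 652 ± 65.3 on the Mef2d KO array and 697 ± 69.8 on the WT array, a difference of -0.18 ± 0.20 after scaling. The dimmer one read 69.0 ± 7.51 on the Mef2d KO array and 87.5 ± 9.28 on the WT array, a difference of -0.43 ± 0.22. Both probes were lower in Mef2d KO, the brighter by less than its error and the dimmer by more. Dim probes as a whole leaned the same way, since the 500 nearest in level to the dimmer probe had a median of -0.17 and a central 95% from -0.85 to 0.43.

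Lrfn4, the third member with the PDZ-binding end and a ligand of LAR-type phosphatases, read 2668 ± 267 on the Mef2d KO array and 2466 ± 247 on the WT array. The difference after scaling was 0.026 ± 0.20, close to the median of 0.024 among its 500 nearest probes. Its sign depended on the scaling, with -1.0e-05 under cyclic loess and 0.204 under median scaling.

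Lrfn3, which lacks the PDZ-binding end, read 2029 ± 203 on the Mef2d KO array and 2115 ± 212 on the WT array. Its difference was -0.15 ± 0.20, and 0.031 under median scaling. Lrfn5, the other member without that end, is like Lrfn4 a ligand of the LAR-type phosphatases. Its brighter probe read 84.1 ± 8.99 on the Mef2d KO array and 79.1 ± 8.56 on the WT array, a difference of 0.0012 ± 0.22 that ran from -0.018 to 0.21 over the other processing choices. Its dimmer probe read 26.6 ± 4.16 on the Mef2d KO array and 25.7 ± 4.17 on the WT array, a difference of -0.037 ± 0.32, with spots only 2.28 times as bright as the local background on the Mef2d KO array and 2 times on the WT array. Both Lrfn5 probes therefore gave nearly equal signals on the arrays, at a brightness where 2% and 12.8% of the 500 nearest probes were at least 2-fold lower. Those nearest probes had median differences of -0.17 and -0.44, below the values of the Lrfn5 probes.

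**Figure D2:**
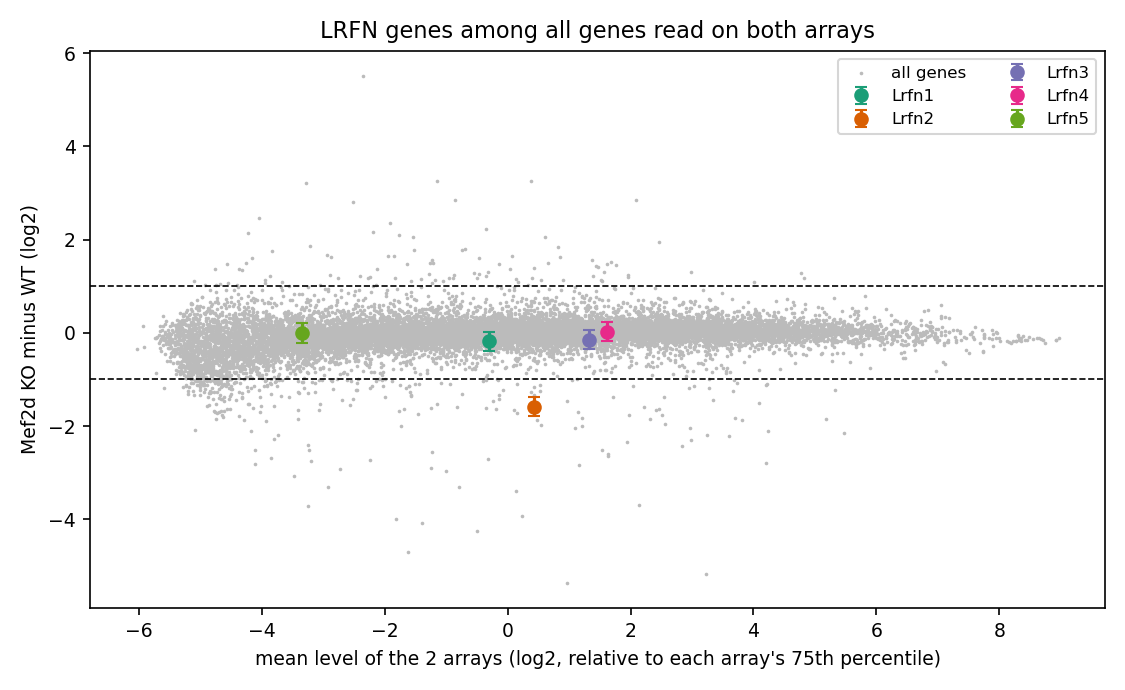
Difference (Mef2d KO minus WT, log2) against mean level of the 2 arrays (log2, relative to each array's 75th percentile) for 16190 genes (grey) and the 5 LRFN genes by their brightest probe, with error-model bars; dashed lines mark 2-fold. Lrfn2 lies below the lower line at -1.59, and the other 4 lie inside the cloud of all genes.

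Upstream sequence from RefSeq (build GRCm38.p6) was at hand for Lrfn3, Lrfn4 and Lrfn5. The 250 bases before the transcript start are shown for Lrfn3 and Lrfn4, both bright on the arrays and within 2-fold, because the study concerns the loss of a DNA-binding factor. They lie at chr7:30362773-30363022 (minus strand) and chr19:4615668-4615917 (minus strand), and read 5′ to 3′:
Lrfn3: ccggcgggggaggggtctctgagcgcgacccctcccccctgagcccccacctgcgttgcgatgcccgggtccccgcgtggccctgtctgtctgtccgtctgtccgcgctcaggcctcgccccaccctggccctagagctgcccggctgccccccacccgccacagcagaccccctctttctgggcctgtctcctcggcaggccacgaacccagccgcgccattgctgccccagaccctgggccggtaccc
Lrfn4: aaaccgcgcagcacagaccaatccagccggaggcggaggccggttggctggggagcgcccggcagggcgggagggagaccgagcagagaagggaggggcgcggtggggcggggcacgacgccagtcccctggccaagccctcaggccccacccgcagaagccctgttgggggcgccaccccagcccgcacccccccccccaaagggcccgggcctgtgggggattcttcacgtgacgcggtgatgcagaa
Both are rich in G and C, at 74.4% for Lrfn3 and 73.6% for Lrfn4, and the Lrfn5 window holds 66.4%. The median was 52.4% over the 32851 such windows at hand, which do not cover every gene. Neither the MEF2 box nor TAATCC, the core bound by the photoreceptor factor CRX, was found on either strand of the 3 windows, so no letters are in capitals. The MEF2 box occurs in 2.92% and TAATCC in 6.25% of the windows at hand, and their absence from a window says nothing about binding elsewhere.

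The 4 partner lists, of phosphatases, scaffolds and glutamate receptors, took whole families, so a listed gene need not bind an LRFN protein. Of their 24 genes, 0 passed 2-fold. That is near the shares of 1.75% lower and 0.618% higher over all genes, so the count says nothing particular to them. The scaffold genes Dlg1 and Dlg4, of which Dlg4 encodes PSD-95, had the largest differences of the 4 MAGUK scaffolds, at 0.48 ± 0.20 and 0.40 ± 0.20, and the list median was 0.21. Under median scaling these were 0.65, 0.58 and 0.38. The other Dlg1 probe well above background differed by only 0.25. Dlg2 and Dlg3 differed by -0.025 and 0.011, less than their errors, and turned sign under other scalings. Among 7 NMDA receptor subunits, Grin2c (0.58 ± 0.20) and Grin3b (0.53 ± 0.20) were the furthest from 0, and Grin1, the obligate subunit, differed by -0.18 ± 0.20. With median scaling they differed by 0.76, 0.70 and -0.0014. The NMDA list median of -0.15 was 0.026 under median scaling, 0.012 under cyclic loess and 0.0017 under quantile normalization. Of the 3 LAR-type phosphatases, Ptprd differed by -0.21, Ptprf by -0.18 and Ptprs by 0.042, each ± 0.20. Under median scaling these were -0.030, -0.0013 and 0.22. The list of 10 AMPA receptor subunits and their auxiliary TARP proteins had a median of -0.15, or 0.030 under median scaling, with Cacng8 at -0.83 ± 0.30 and Gria3 at -0.24 ± 0.20. Cacng8 was dim and differed by -0.25 with normexp background.

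Other synaptic adhesion genes were mostly near 0. Of 32 other leucine-rich repeat genes read on both arrays, Lrtm1 was at least 2-fold lower (-1.02 ± 0.20, and -0.84 under median scaling). Lingo3 had the next largest difference (0.37 ± 0.20, and 0.55 under median scaling). The list median was -0.0023, or 0.18 under median scaling. Elfn1 was not well above background on the Mef2d KO array and entered no count. Lrit1 differed by 0.27 (0.45 under median scaling), Lrit2 by -0.024 and Nyx, the gene of nyctalopin, by -0.068, turning to a positive value under median scaling for the last 2. Of 35 genes of other adhesion families, such as neurexins, neuroligins and teneurins, 0 passed 2-fold. Ncam1, the neural cell adhesion molecule, differed by -0.44 ± 0.20, or -0.26 under median scaling. Its 3 probes well above background ran from -0.74 to -0.43. Il1rap, an interleukin receptor subunit that also acts at synapses, was dim and differed by -0.40 ± 0.23, or -0.22 under median scaling and -0.13 under cyclic loess. The other Il1rap probe well above background differed by -0.69. In the photoreceptor synapse list 0 of 26 genes passed 2-fold. Its largest differences were in Slc17a7, the vesicular glutamate transporter VGLUT1, at -0.48 ± 0.20 (-0.30 under median scaling), and Mpp4, a scaffold of photoreceptor terminals, at 0.38 ± 0.20 (0.56 under median scaling). Over the 117 genes read on both arrays in these partner and adhesion lists, 1 was at least 2-fold lower and 0 higher. The shares over all genes were 1.75% and 0.618%, which sets neither this count nor that of the photoreceptor synapse list apart. The 117 genes had a median of -0.025, less than the shift of 0.18 that median scaling adds.

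**Figure D3:**
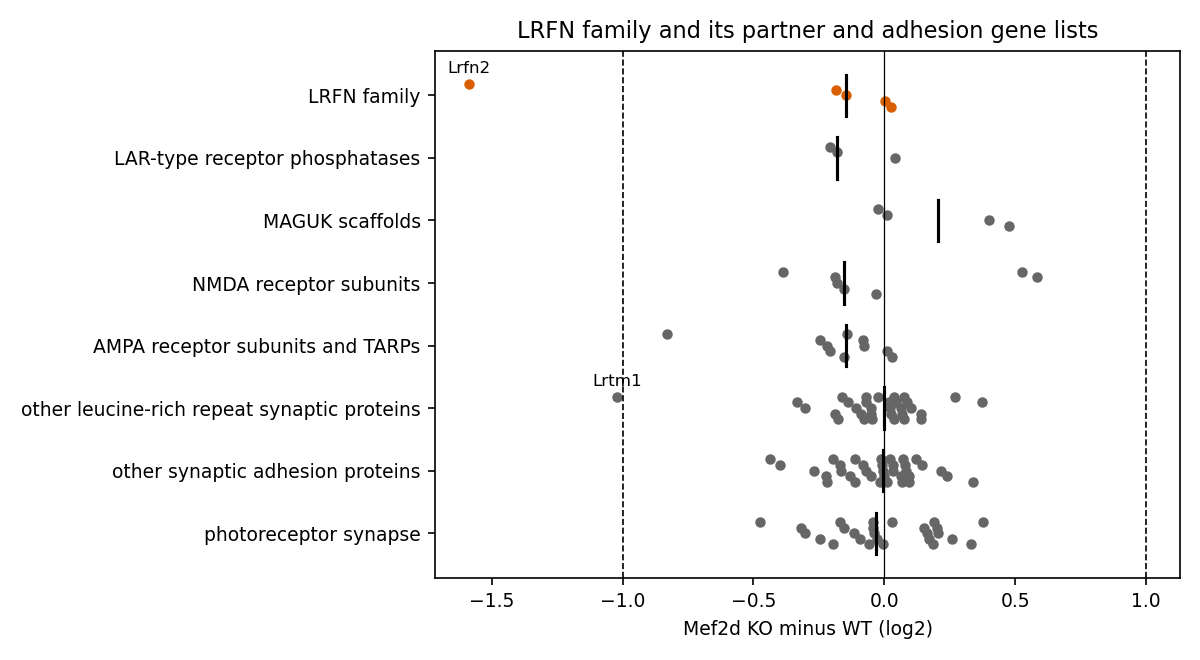
Differences (Mef2d KO minus WT, log2) of the 5 LRFN genes (top) and of the 7 partner and adhesion gene lists, 1 point per gene and a black bar at each median; dashed lines mark 2-fold. Only Lrfn2 (-1.59) and Lrtm1 (-1.02) lie beyond the lower line.

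The genes whose differences were nearest to that of Lrfn2, over the 2 arrays, were Arg2 (-1.587), a mitochondrial arginase, Faim (-1.591), an inhibitor of Fas-mediated cell death, and Gtsf1 (-1.58), a factor of the piRNA pathway in germ cells. The gaps were 0.00055, 0.0049 and 0.0050. Gtsf1 was dim, at log2 levels of -5.69 in Mef2d KO and -4.11 in WT, and its difference had an error of 0.34. With 2 arrays, likeness is a single number and carries no more than that. Of the 4 measured genes nearest to Lrfn2 along chromosome 17, 2 were read on both arrays. Tspo2 differed by 0.026 ± 0.20 and Mocs1, which acts in molybdenum cofactor synthesis, by 0.52 ± 0.20, so neither was lower. The next gene after Lrfn2, 1700008K24Rik, was well above background on the WT array only. Its measured log2 levels were -7.14 in Mef2d KO and -5.40 in WT, a difference of -1.74 ± 0.94. The bound set by the lowest spot well above background was 1.39-fold lower in Mef2d KO, and the error is too wide to make it firm. Unc5cl was well above background on neither array.

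**Figure D4:**
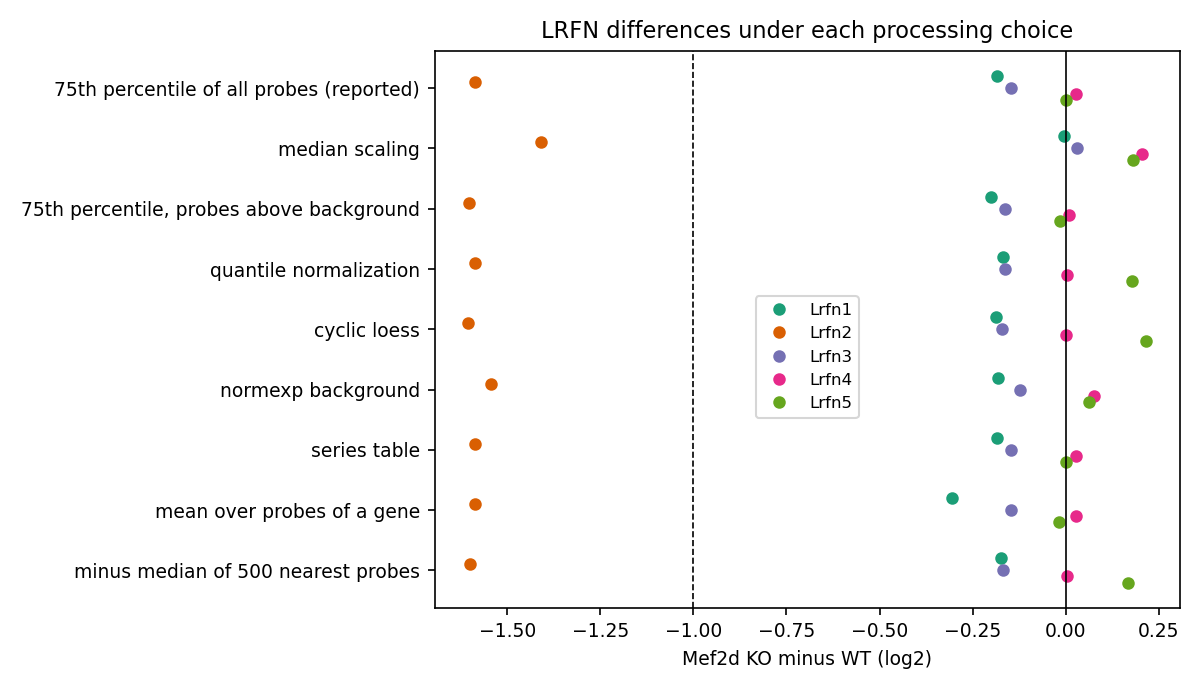
Differences (Mef2d KO minus WT, log2) of the 5 LRFN genes (colours) under each processing choice (rows); the dashed line marks 2-fold lower. Lrfn2 stays between -1.60 and -1.41 in every row, and the other 4 stay between -0.31 and 0.21.

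Several listed marker genes differed between the arrays along with Lrfn2. All listed markers of rods, cones, bipolar, amacrine, ganglion and horizontal cells and Mueller glia were well above background on both arrays, and 0 of 8 rod markers passed 2-fold. Of 7 cone markers 2 were at least 2-fold lower, Arr3 (-5.36) and Pde6h (-2.42). The others were Opn1sw (-0.53), Opn1mw (-0.31), Cngb3 (-0.29), Gnat2 (-0.13) and Pde6c (-0.015). The list's summed level, as multiples of the 75th percentile, was 58.3 in Mef2d KO and 90.1 in WT. Most of that fall lay in Arr3 and Pde6h, so the sum is no measure of cone content. Lens markers were lower by 2-fold or more in 7 of the 9 read on both arrays, with a summed level of 32.5 in Mef2d KO and 143 in WT over the 10 on the list. They included Mip, the lens water channel, and the crystallin genes Cryaa and Crygs, and Lim2 was not well above background in Mef2d KO. Cryaa and Crygs had log2 levels of 6.54 and 5.28 in WT, against 2.95 for Crybb2, the next highest. The lens sum thus rests mainly on Cryaa and Crygs and is no measure of lens tissue. Among 4 skeletal muscle markers read on both arrays, Tnnt1 and Pygm passed 2-fold with lower values. The summed level over the 7 on the list was 1.999 in Mef2d KO and 7.56 in WT. Of these, 3 in Mef2d KO and 2 in WT were not well above background, with Ckm and Myh2 so on both arrays. In WT the log2 levels were 2.11 for Tnnt1 and 1.54 for Pygm, against -1.95 for Acta1, the next highest. The sum thus rests mainly on Tnnt1 and Pygm and is no measure of muscle tissue. The part of these marker differences in the Lrfn2 difference was not tested. Xist, the RNA of the inactive X chromosome, was at least 51.7-fold and 26.4-fold higher in Mef2d KO by its probes, and the Y-linked Eif2s3y was read on both (-0.36 ± 0.20). Genotype and the sex composition of the samples cannot be told apart, and all 5 LRFN genes are autosomal.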

How the data were processed

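Total RNA of Mef2d KO and WT retina was amplified and Cy3-labelled for 1 array each, per the labels' protocols. The authors used Agilent Feature Extraction 10.10.1.1 to make the deposited intensity values, with background subtraction and spatial detrending inside each array, per the file headers. Both arrays came from 1 slide and 1 scan. Values in the deposited series table are these intensities times a constant, 1.76 for Mef2d KO and 1.88 for WT (column medians 136.6 and 155.1). It is linear and not centred, and the sources used here do not say what set the constants.

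Levels are log2 processed signals after subtracting the log2 of the array's own 75th percentile over 59305 probe spots (858 in Mef2d KO, 807 in WT). On Mef2d KO 69.6% and on WT 75.5% of the spots were well above background. No spot was saturated. Outlier spots (126 on Mef2d KO, 106 on WT) were dropped, and the remaining spots of a probe averaged. RefSeq accessions without version named 27225 probes (48.9%) through the GRCm38.p6 annotation, and unnamed probes were not counted. Because the design file is on mm9, the annotation gave names and gene order but no positions. Each gene was represented by its brightest probe. A bound on 1 array used the lowest spot well above background.

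The rule for named genes took every member, the 2 largest differences of each list and those past 2-fold, the 3 genes nearest to Lrfn2, its chromosome neighbours and label checks. Dlg2, Dlg3, Grin1, Ptprs, Lrit1, Lrit2, Nyx and Elfn1 are named in addition, chosen after their values were seen. Members and lists were chosen with earlier results of these data known. Precision is limited by the number of arrays. The difference had a median SD of 0.082 between repeat spots, over 432 probes. On simulated arrays, both made from the WT array with scanner noise alone, all 50 genes at each log2 change of -3, -1.5, 1.5 and 3 were recovered past 2-fold among 17130 genes, and 17 of 16930 unchanged genes passed it. The simulation holds no variation between animals or samples. It checks the calculation and gives no error rate for the real counts. Software was Python 3.11.15 (pandas 2.3.3, numpy 2.4.6, matplotlib 3.10.9) and limma 3.58.1 in R 4.3.3. Alternatives were other scalings, quantile normalization, cyclic loess, normexp background (offset 50, on median spot signals), the series table, the mean over probes, no background filter and subtraction of the local median.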

Additional observations from a re-analysis of the deposited data

How the results depend on the processing

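Of the 5 LRFN members, Lrfn2 stayed past 2-fold, with lower values in Mef2d KO, and Lrfn1, Lrfn3, Lrfn4 and Lrfn5 inside 2-fold, under every alternative tried, and each member moved by less than its scanner error. The series table could move no member beyond rounding, and the mean over probes could not move members with 1 probe. The lowest and highest differences were -1.60 and -1.41 for Lrfn2, -0.31 and -0.0059 for Lrfn1, -0.17 and 0.031 for Lrfn3, -1.0e-05 and 0.204 for Lrfn4, and -0.018 and 0.21 for Lrfn5. The signs of Lrfn3, Lrfn4 and Lrfn5 thus depend on the scaling. Lrtm1 dropped inside 2-fold with median scaling, leaving 0 of the other leucine-rich repeat genes at least 2-fold lower, because that scaling adds 0.18 to every difference (median of all genes 0.17). The background counts moved more. Against 283 genes at least 2-fold lower and 100 higher (73.9% lower), there were 171 and 151 (53.1%) with median scaling, 165 and 157 (51.2%) with quantile normalization, 163 and 154 (51.4%) with cyclic loess, 103 and 61 (62.8%) with normexp background, and 1739 and 225 (88.5%) with no background filter. No paired analysis was possible because each genotype has 1 array and the labels give no replicate numbers. Lrfn2 rests on 1 probe, and Lrfn5 is dim on both arrays, where small differences are hard to read.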
